A study of Mus musculus with 8 samples.

Results

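The SR protein genes, a family of splicing factor genes that includes *Srsf10*, were followed on Affymetrix Mouse430 arrays in hearts of mouse embryos at E18.5. Of the 10 genes *Srsf1*, *Srsf2*, *Srsf3*, *Srsf4*, *Srsf5*, *Srsf6*, *Srsf7*, *Srsf9*, *Srsf10* and *Srsf11*, 9 had a probe set annotated to that gene alone, and all 32 such probe sets of the 45101 on the array are described. They were 7 of *Srsf1*, 6 of *Srsf3*, 4 each of *Srsf2*, *Srsf6*, *Srsf10* and *Srsf11*, and 1 each of *Srsf4*, *Srsf5* and *Srsf9*. *Srsf7* had none and was not analysed here. The family was taken up because a probe set of *Srsf10* was among those higher in the mutant hearts, so the *Srsf10* values are a description, and where a count over the family includes that probe set nothing is read from it. The other genes were chosen by family name.

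The 3 2lox/2lox hearts were homozygous for the unrecombined floxed *Aof2* (*Kdm1a*) allele, which has loxP sites in introns and a pair of point mutations in the tower domain of Lsd1, the histone demethylase that the gene encodes. The labels also call these samples a knock-out, but the allele still makes an Lsd1 protein and is described in the study as hypomorphic. The 5 other hearts were wild-type. Each sample is labelled as a heart of its own, read on 1 array, and the labels name no agent given to either group. The study describes the animals as littermates. The study compared the genotypes because Lsd1 regulates transcription, to find transcripts whose level differs in the mutant hearts.

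SR proteins carry RNA recognition motifs and a tail rich in arginine and serine repeats. They bind exons in the pre-mRNA, help the spliceosome choose splice sites and accompany many mRNAs to the cytoplasm. Kinases of the SRPK and CLK families phosphorylate the tail and so control where the proteins are and what they do. Many SR genes also splice their own transcripts in more than one way, including forms with an early stop codon that nonsense-mediated decay removes. In the heart, SR proteins take part in the splicing of transcripts for calcium handling and for the sarcomere. The product of *Srsf10*, known earlier as Fusip1, represses splicing when it is dephosphorylated, after heat shock or during mitosis, and acts as an activator on particular exons when phosphorylated.

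All values are log2 expression levels as deposited, so a difference of 1 is a doubling. A probe set is a group of short probes read together, usually from the 3′ end of a transcript. Fold changes are 2lox/2lox minus wild-type from limma, and two-sided p-values were adjusted over the 45101 probe sets (Benjamini-Hochberg), with a threshold of 0.05. Levels of different probe sets are not compared, because probes differ in how well they bind. *Kdm1a* was lower in the 2lox/2lox hearts in both of its probe sets (log2 fold changes -0.81 and -0.83, limma adjusted p = 5.15e-04 and 0.00176). All 10 cardiomyocyte markers, among them *Myh6*, *Tnnt2* and *Nkx2-5*, lay above the array median in every heart. RNA quality was followed as the 3′/5′ contrast, the level of 3′ less that of 5′ control probe sets for *Actb* and *Gapdh*. It was 0.52 and 0.50 in 2lox/2lox hearts 1 and 2, 0.33 in 2lox/2lox heart 3, and 0.32 to 0.38 in the wild-type hearts.

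The 4 probe sets of *Srsf10* gave different pictures of the gene. With 1449121_at the 2lox/2lox hearts 1 to 3 read 8.51, 8.27 and 8.40, and the wild-type hearts 1 to 5 read 7.82, 7.50, 7.60, 7.61 and 7.61. Every 2lox/2lox heart lay above every wild-type heart. The means were 8.39 ± 0.12 (SD, n = 3) and 7.63 ± 0.12 (SD, n = 5), a log2 fold change of 0.76 (standard error 0.08) or a fold of 1.70. This is the probe set that led to the choice of the family.

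With 1418526_at the 2lox/2lox hearts read 9.08, 9.19 and 9.49 and the wild-type hearts 8.98, 8.55, 8.64, 8.85 and 8.99. The groups again did not overlap, but 2lox/2lox heart 1 and wild-type heart 5 were only narrowly apart. The log2 fold change was 0.45 (standard error 0.12), a fold of 1.36. The spread within each genotype was wider here (SD 0.21 in 2lox/2lox, n = 3, and 0.20 in wild-type, n = 5) than with 1449121_at.

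With 1418527_a_at the 2lox/2lox hearts read 8.62, 8.68 and 9.31 and the wild-type hearts 9.30, 9.04, 8.93, 9.10 and 9.37. Hearts 1 and 2 of the 2lox/2lox genotype were thus below all wild-type hearts, while heart 3 lay inside their range. The log2 fold change was -0.28 (standard error 0.16, 95% interval -0.63 to 0.07), against the direction of the preceding probe sets, and became -0.50 without 2lox/2lox heart 3 and -0.16 without 2lox/2lox heart 1. The hearts that read low were those with the larger 3′/5′ contrasts, 0.52 and 0.50. With this contrast in the fit as a covariate, 1418527_a_at had a log2 fold change of 0.12, 1418526_at had 0.69 and 1449121_at had 0.77, and none passed the threshold. The contrast of 2lox/2lox hearts 1 and 2 lay above that of every wild-type heart, so this fit separates it poorly from genotype. The same holds for the values from that fit given below, and the part of the contrast was not tested.

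With 1423982_at the 2lox/2lox hearts read 9.44, 9.39 and 9.42 and the wild-type hearts 9.59, 9.39, 9.28, 9.35 and 9.52. All 2lox/2lox hearts lay within the wild-type range. The log2 fold change was -0.01 (standard error 0.08, 95% interval -0.18 to 0.16). In the platform annotation the other 3 *Srsf10* probe sets stand for 1 and the same transcript record and 1423982_at for another. The _a_at ending of 1418527_a_at marks a probe set whose probes match several transcript forms of a gene. Which exons the probes read is unknown here.

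**Figure D1:**
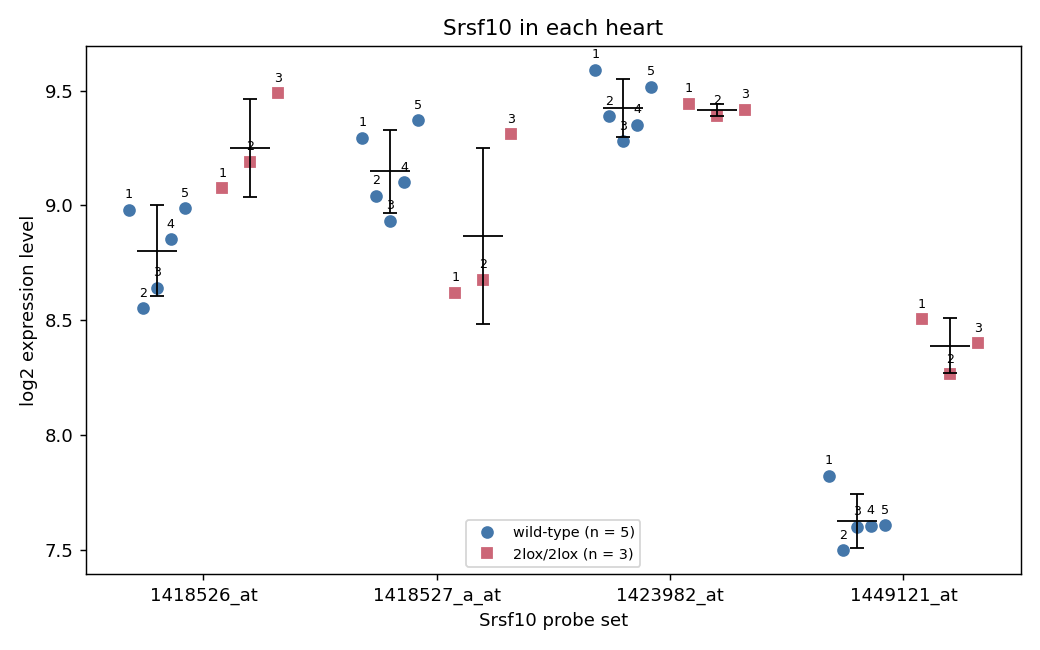
Log2 expression level (vertical axis) of the 4 *Srsf10* probe sets (horizontal axis) in each heart; circles are the 5 wild-type and squares the 3 2lox/2lox hearts, numbers are heart numbers, and black bars show mean ± SD. The groups are apart in 1449121_at and 1418526_at, 2lox/2lox hearts 1 and 2 are below the wild-type hearts in 1418527_a_at, and the groups overlap in 1423982_at.

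Differences between probe sets of *Srsf10* were also taken within each heart, as a description, and only their shift between genotypes is read, not their size. The level of 1449121_at minus that of 1423982_at was -0.94, -1.12 and -1.01 in 2lox/2lox hearts 1 to 3 and -1.77, -1.89, -1.67, -1.74 and -1.91 in wild-type hearts 1 to 5. The means differed by 0.77 (SD 0.09 in 2lox/2lox, n = 3, and 0.10 in wild-type, n = 5), which restates the value of 1449121_at, since 1423982_at had a log2 fold change of -0.01. The level of 1449121_at minus that of 1418527_a_at was -0.12, -0.41 and -0.91 in the 2lox/2lox hearts, while wild-type hearts spanned -1.76 to -1.33, so these too were apart, by 1.04, with a wide spread among the 2lox/2lox hearts. Against 1418526_at, 2lox/2lox hearts had -0.57, -0.92 and -1.09, with wild-type hearts at -1.38 to -1.04, and the genotypes overlapped.

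Markers of macrophages were also followed in these hearts. All 8 markers of the list had positive log2 fold changes, 2 of them, *Lgals3* and *Cybb*, past the threshold, where 0.148% of 18194 genes passed. Both are in the study's own list of changed transcripts from this comparison, so nothing is read from that count. The other 6 had log2 fold changes of 0.17 to 0.62 and did not pass. The mean difference of the list from the wild-type mean was 0.32, 0.46 and 0.59 in 2lox/2lox hearts 1 to 3, with wild-type hearts at -0.21 to 0.17. That mean includes *Lgals3* and *Cybb*, so nothing is read from its distance to the wild-type hearts either. Of the 8 markers, 5 lay above the array median in every heart. The part of these cells in the *Srsf10* values was not tested. In whole hearts, more cells of a type and more RNA per cell cannot be told apart.

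Across the family, 1 of 32 probe sets passed the threshold, 1449121_at of *Srsf10*, and 31 did not. Over the whole array 0.0798% of all probe sets passed, made up of 0.0621% that were higher and 0.0177% that were lower. Because that probe set led to the choice of the family, nothing is read from the count. No member passed with the heart number as a block, with the 3′/5′ contrast in the fit or without 2lox/2lox heart 1, where 1449121_at had log2 fold changes of 0.75, 0.77 and 0.70. At an unadjusted p under 0.05, 3 of the 32 were higher, where 5.97% of all probe sets were, and 0 were lower, where 4.94% were. In 3 of the 32 all 2lox/2lox hearts lay above the wild-type range, against 3.41% of all probe sets, and in 0 all lay below it, against 2.71% (6.11% on either side). The 3 were 1449121_at and 1418526_at of *Srsf10* and 1439095_at of *Srsf11*.

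The median log2 fold change was -0.01 over the 32 probe sets and -0.0036 over all probe sets, and the median size regardless of sign was 0.07 in both. Among probe sets with a mean above the array median, which 29 of the members have, that size was 0.0647 in the family and 0.0874 over the array. Of the 32, 14 had a positive and 18 a negative log2 fold change. For 28 of the 32 the 95% interval lay within a fold of 1.4 in either direction, the fold named in the study's methods. The median SD of a member was 0.11 in wild-type and 0.10 in 2lox/2lox hearts, and that of all probe sets was 0.10 in each genotype.

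**Figure D2:**
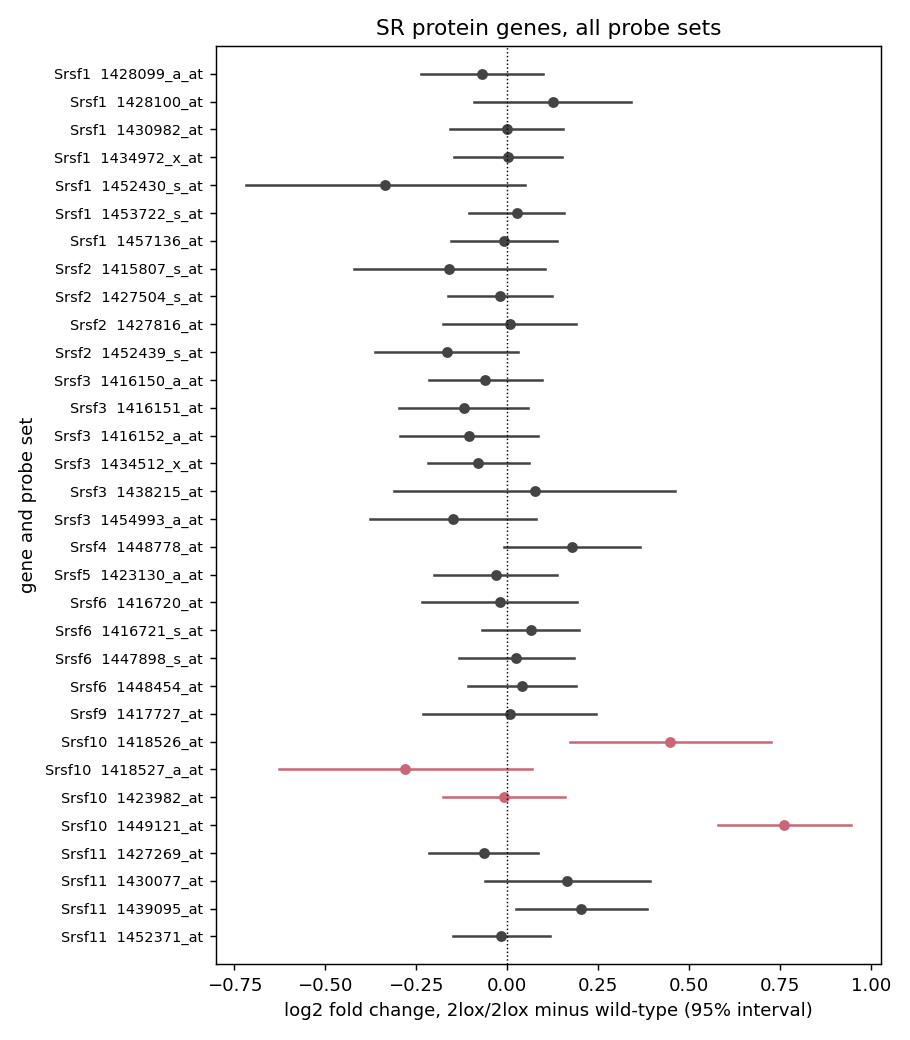
Log2 fold change (2lox/2lox minus wild-type, horizontal axis) of the 32 probe sets of SR protein genes (vertical axis), with bars for the limma 95% interval; the *Srsf10* probe sets are coloured. Outside *Srsf10* the values run from -0.34 to 0.20.

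Outside *Srsf10*, the 28 probe sets of 8 genes had log2 fold changes from -0.34 to 0.20, and limma adjusted p was at least 0.397. *Srsf1*, which encodes the first SR protein to be studied in detail and is needed for the splicing of calcium and sarcomere transcripts in the heart, had 7 probe sets from -0.34 to 0.13. The lowest, 1452430_s_at, read 9.79, 10.21 and 10.63 in 2lox/2lox hearts 1 to 3 and 10.59, 10.39, 10.29, 10.76 and 10.69 in the wild-type hearts. Here again hearts 1 and 2 were below the wild-type range and heart 3 was inside it (log2 fold change -0.34, 95% interval -0.72 to 0.05, limma adjusted p = 0.526). Leaving out 2lox/2lox heart 3 gave -0.55, leaving out 2lox/2lox heart 1 gave -0.12, and the 3′/5′ contrast in the fit gave 0.10. The other 6 lay between -0.07 and 0.13, of which 1457136_at, with a wild-type mean of 4.23, was near the lower quartile of all values, 4.21, so it may read background alone.

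*Srsf2* encodes SC35, a protein of nuclear speckles that also takes part in transcription elongation. Its 4 probe sets had log2 fold changes of -0.17 to 0.01. With 1415807_s_at the 2lox/2lox hearts read 9.54, 9.39 and 9.95 and the wild-type hearts 9.81, 9.72, 9.70, 9.98 and 9.74 (log2 fold change -0.16, limma adjusted p = 0.698). With 1452439_s_at the 2lox/2lox hearts read 9.64, 9.59 and 9.88 and the wild-type hearts 10.001, 9.71, 9.78, 9.91 and 9.94 (log2 fold change -0.17, limma adjusted p = 0.547). In both, 2lox/2lox hearts 1 and 2 were below all wild-type hearts and heart 3 was among them. The remaining pair, 1427504_s_at and 1427816_at, had -0.02 and 0.01, with every 2lox/2lox heart within the wild-type range in 1427504_s_at. With the 3′/5′ contrast in the fit, 1415807_s_at had 0.13 and 1452439_s_at 0.0006.

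The position of hearts 1 and 2 below and heart 3 within the wild-type range was shared by 4 of the 32 probe sets, 1 of *Srsf1*, 2 of *Srsf2* and 1 of *Srsf10*, where 5.8% of all probe sets had it. All 4 carry an _s_at or _a_at ending, as do 13 of the 32. An _s_at probe set can match transcripts of more than one gene.

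*Srsf3* encodes a small SR protein that also acts in mRNA export and regulates its own splicing. A processed copy of the gene, *Srsf3-ps*, is listed in the mouse annotation, and the probes may not tell the copies apart. Of its 6 probe sets 5 had negative log2 fold changes, from -0.15 to -0.06, and 1438215_at had 0.08. In all 6, 2lox/2lox heart 1 was below the wild-type range, while 2lox/2lox hearts 2 and 3 were below it in none. For 1454993_a_at, the lowest of the 6, the 2lox/2lox hearts read 9.95, 10.25 and 10.40 and the wild-type hearts 10.36, 10.35, 10.20, 10.52 and 10.33 (log2 fold change -0.15, limma adjusted p = 0.664). Without 2lox/2lox heart 1 its log2 fold change was -0.02. The 6 probe sets read RNA of 1 gene, so they are not independent observations of that heart.

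The same heart had the most low values over the family. Of the 32 probe sets, 13 lay below the wild-type range in 2lox/2lox heart 1, 5 in heart 2 and 0 in heart 3, where 20.1%, 22.7% and 15.2% of all probe sets did. Above the wild-type range there were 5, 7 and 8, where 23.6%, 19.1% and 15.2% of all probe sets were.

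**Figure D3:**
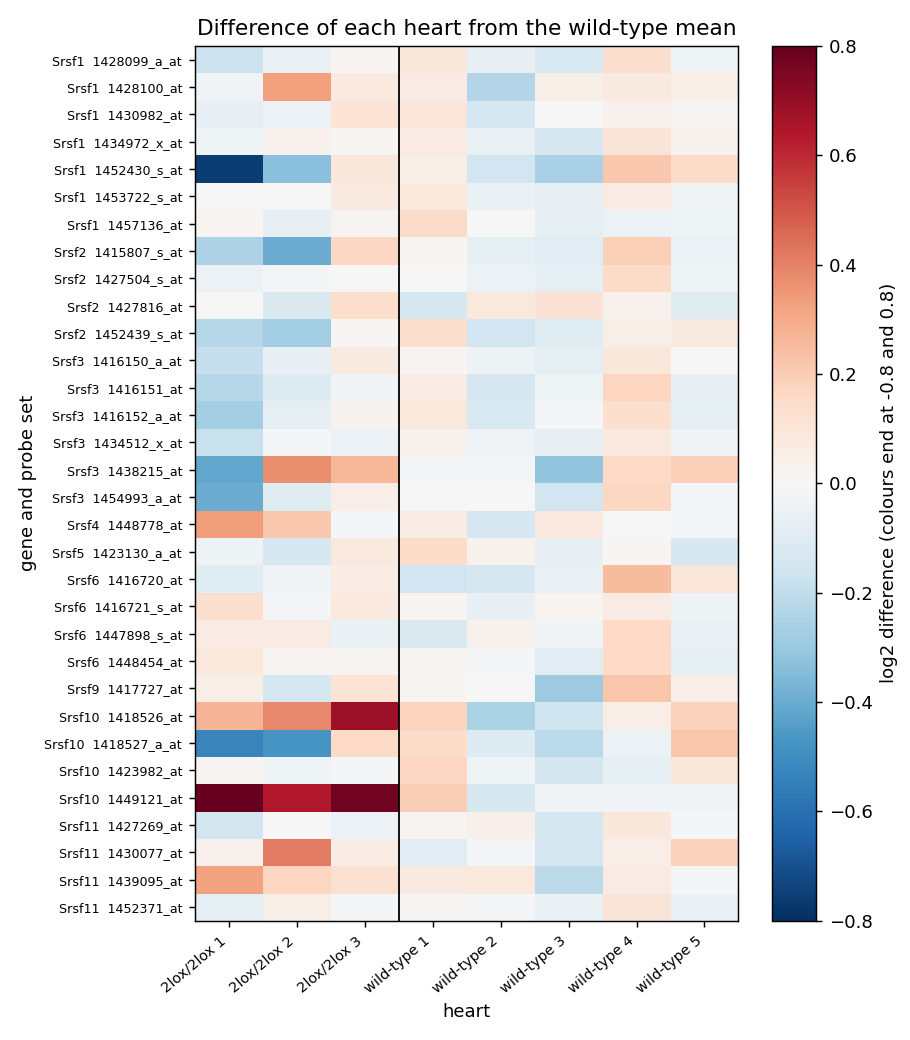
Log2 difference from the wild-type mean (colour) for each of the 32 probe sets of SR protein genes (vertical axis) in each heart (horizontal axis, 3 2lox/2lox hearts left of the line, 5 wild-type hearts right of it). Red *Srsf10* cells fill all 2lox/2lox hearts in 1449121_at and 1418526_at, and in each *Srsf3* probe set the deepest blue cell is that of 2lox/2lox heart 1.

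*Srsf4*, which encodes a large SR protein with a long arginine and serine tail, has 1 probe set and read 9.99, 9.87 and 9.64 in the 2lox/2lox hearts and 9.71, 9.52, 9.73, 9.66 and 9.65 in the wild-type hearts. Hearts 1 and 2 were above all wild-type hearts and heart 3 was among them. The log2 fold change was 0.18 (standard error 0.08, 95% interval -0.01 to 0.36, limma adjusted p = 0.480), and it was 0.01 with the 3′/5′ contrast in the fit. This was 1 of the 32 probe sets with that placement, which 5.99% of all probe sets had.

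*Srsf11* encodes an SR-like protein of the spliceosome. Its bright probe sets, 1452371_at and 1427269_at, had log2 fold changes of -0.02 (95% interval -0.15 to 0.12) and -0.06 (95% interval -0.21 to 0.09). The dim probe set 1439095_at read 4.75, 4.60 and 4.55 in the 2lox/2lox hearts and 4.50, 4.51, 4.22, 4.49 and 4.42 in the wild-type hearts. These did not overlap, but all lay below the median of all values, 5.07, and the log2 fold change of 0.20 did not pass (limma adjusted p = 0.397). The other dim probe set, 1430077_at, had 0.17 (limma adjusted p = 0.614).

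*Srsf5*, *Srsf6* and *Srsf9*, which encode SR proteins with a pair of RNA recognition motifs, differed least. The 4 probe sets of *Srsf6* lay between -0.02 and 0.06. *Srsf5* read 11.24, 11.15 and 11.36 in the 2lox/2lox hearts and 11.43, 11.31, 11.22, 11.30 and 11.16 in the wild-type hearts (log2 fold change -0.03, 95% interval -0.20 to 0.14, limma adjusted p = 0.933). *Srsf9* read 9.41, 9.21 and 9.47 against 9.37, 9.35, 9.06, 9.57 and 9.41 (log2 fold change 0.01, 95% interval -0.23 to 0.24, limma adjusted p = 0.990). The genotypes overlapped in both genes.

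Other genes of splicing were described by their brightest probe set, from 7 lists chosen by function. The last of the 7 holds no splicing factors but heart transcripts spliced under SR proteins, which are described further below. Of 118 listed genes 109 were measured, and 0 passed limma's adjusted threshold, where 0.148% of 18194 genes did. By its brightest probe set, 1423982_at with a log2 fold change of -0.01, *Srsf10* did not pass either. A change in a dimmer probe set of a listed gene would be missed. The count of 0 is therefore not compared with the family count over all probe sets. Without adjustment, 12 of the 109 were higher and 2 lower with p under 0.05, where 5.82% and 4.41% of all genes were. Among the 14 kinases, phosphatase subunits and transport factors of SR proteins the median log2 fold change was 0.04, and over all genes it was -0.0046. *Prpf4b*, a kinase of the spliceosome, had -0.17 (limma adjusted p = 0.378) and *Dyrk1a*, a kinase that acts on splicing factors, 0.16 (limma adjusted p = 0.480). *Clk3* and *Clk4*, SR protein kinases, had 0.11 and 0.19 (limma adjusted p = 0.484 and 0.511).

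The 18 SR-related proteins had a median of 0.12, with 14 positive. The mean difference of the list from the wild-type mean was 0.09, 0.13 and 0.04 in 2lox/2lox hearts 1 to 3, with wild-type hearts at -0.03 to 0.02. *Rbm25*, which encodes a splicing factor that binds the early spliceosome, read 9.22, 9.21 and 9.04 in the 2lox/2lox hearts, with wild-type hearts at 8.88 to 8.96 (log2 fold change 0.24, limma adjusted p = 0.229). *Luc7l3*, a relative of a yeast factor for 5′ splice sites, had 0.23 (limma adjusted p = 0.308). *Srrm4*, a neuronal splicing activator, had 0.22 (limma adjusted p = 0.436) at a wild-type mean of 4.68, below the array median. *Srrm1*, a coactivator of splicing, had 0.14 (limma adjusted p = 0.476).

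The 21 hnRNP genes, whose products often oppose SR proteins at exons, had a median of -0.01. *Hnrnpl* had the smallest p of the genes in these 7 lists. It read 9.64, 9.45 and 9.33 in the 2lox/2lox hearts, with wild-type hearts at 9.01 to 9.11, which did not overlap (log2 fold change 0.42 ± 0.07, standard error, with a limma adjusted p = 0.103). *Pcbp2*, *Ptbp1* and *Hnrnpa1* had 0.18, 0.12 and -0.12 (limma adjusted p = 0.446, 0.626 and 0.643). The 27 core spliceosome genes had a median of -0.01, with *Snrpb2* at -0.16, *Sf3b3* at 0.15, *Sf3a2* at 0.20 and *Eftud2* at 0.12 (limma adjusted p of 0.390 or more).

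The 13 other splicing regulators of the heart had a median of 0.09. *Rbm24*, needed for splicing in the developing heart, read 11.30, 11.31 and 11.02 in the 2lox/2lox hearts, with wild-type hearts at 10.62 to 11.02 (log2 fold change 0.36, limma adjusted p = 0.271). *Qk*, *Celf2* and *Rbm20* had 0.18, 0.17 and 0.30 (limma adjusted p = 0.350, 0.391 and 0.542). The 10 genes of nonsense-mediated decay had a median of 0.11, with *Smg1* at 0.28, *Upf1* at 0.36, *Casc3* at 0.24 and *Smg5* at 0.18 (limma adjusted p = 0.263, 0.373, 0.381 and 0.546). The mean difference of that list was 0.24, 0.07 and 0.03 in 2lox/2lox hearts 1 to 3, with wild-type hearts at -0.05 to 0.02. In this list, the heart regulators and the SR-related proteins, heart 3 had the smallest shift. Its 3′/5′ contrast was within the range of the wild-type hearts. In the other lists heart 1 or 2 had the smallest shift. The kinase list had -0.04, 0.08 and 0.05 in 2lox/2lox hearts 1 to 3, and the core spliceosome list 0.03, 0.004 and -0.02. The part of that contrast was not tested. Without 2lox/2lox heart 3, *Rbm25*, *Hnrnpl* and *Smg1* passed the threshold, in a fit where 797 probe sets of the array passed in place of 36.

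**Figure D4:**
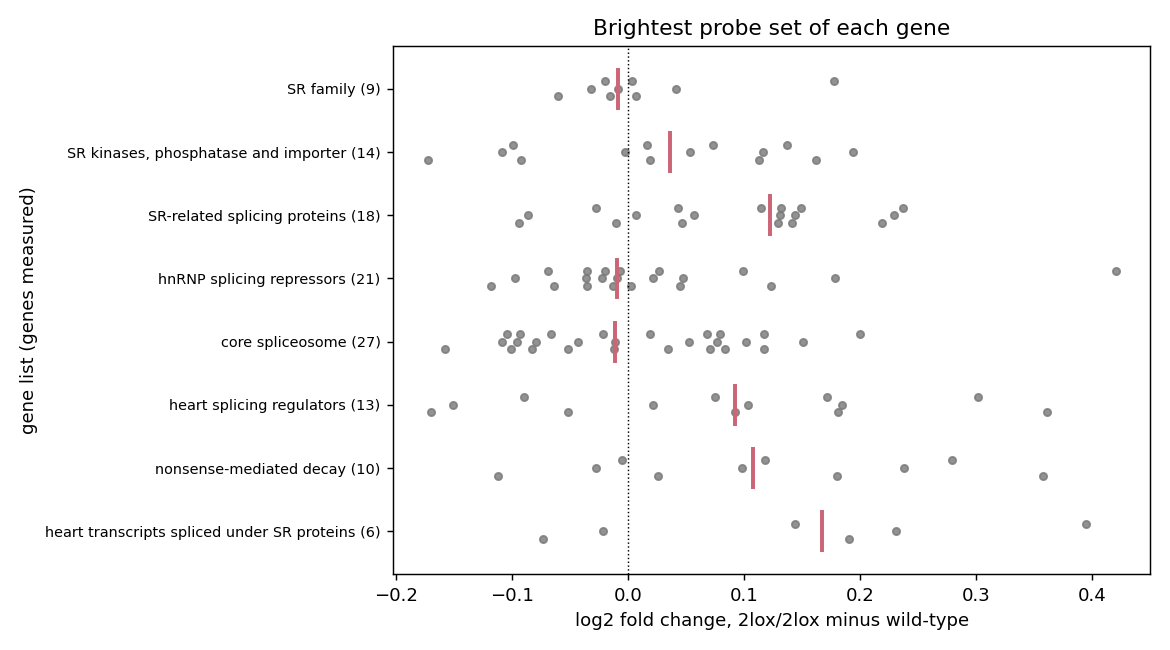
Log2 fold change (2lox/2lox minus wild-type, horizontal axis) of the brightest probe set of each gene in the SR family and 7 other lists (vertical axis, number of genes measured in brackets). These are lists of splicing genes, except the last, of heart transcripts spliced under SR proteins. *Srsf10* is shown by its brightest probe set, 1423982_at, which did not pass the threshold. Grey points are genes and coloured bars list medians; the medians run from -0.01 to 0.17, and the SR family lies at -0.01.

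A further question was whether transcripts known to be spliced under SR proteins in the heart differed in level. Loss of the *Srsf10* product alters the splicing of triadin (*Trdn*), and *Srsf1* acts on *Camk2d*, *Ldb3* and *Tnnt2*. Of the 22 probe sets of *Trdn*, *Camk2d*, *Ldb3*, *Tnnt2*, *Ryr2* and *Casq2*, 0 passed limma's adjusted threshold, where 0.0798% of all probe sets did. Without adjustment, 4 were higher and 0 lower with p under 0.05, where 5.97% and 4.94% of all probe sets were. The 4 were 1440424_at of *Tnnt2* (wild-type mean 6.48) and 1439168_at, 1459457_at and 1444031_at of *Camk2d* (5.46, 5.25 and 3.92). The median of all values was 5.07 and the lower quartile 4.21, so 1444031_at may read background alone and the other *Camk2d* pair is dim. The 6 probe sets of *Trdn*, which encodes a protein that anchors calsequestrin to the calcium release channel, lay between -0.07 and 0.08. Its brightest, 1451801_at, read 10.14, 10.44 and 10.43 in the 2lox/2lox hearts, with wild-type hearts at 10.07 to 10.60 (log2 fold change -0.07, 95% interval -0.35 to 0.20, limma adjusted p = 0.896).

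Probe sets of *Camk2d* and *Tnnt2* differed among themselves. *Camk2d*, a calcium-dependent kinase gene with several splice forms in the heart, had 7 probe sets from 0.03 to 0.70. The highest, 1459457_at, read 5.88, 6.62 and 5.34 in the 2lox/2lox hearts, with wild-type hearts at 4.96 to 5.37, with heart 3 inside the wild-type range (limma adjusted p = 0.317). The next, 1439168_at, read 5.87, 6.59 and 5.71 in the 2lox/2lox hearts, with wild-type hearts at 5.25 to 5.65. These did not overlap, a placement that 3.41% of all probe sets had (log2 fold change 0.60, limma adjusted p = 0.286). The brightest *Camk2d* probe set had 0.19 (limma adjusted p = 0.606). *Tnnt2*, the cardiac troponin T gene, had -0.01 and -0.02 in its bright probe sets. Its dimmer probe set 1440424_at read 7.08, 7.80 and 7.07 in the 2lox/2lox hearts, with wild-type hearts at 6.25 to 6.91 (log2 fold change 0.84 ± 0.19, standard error, with a limma adjusted p = 0.205). *Ldb3*, a Z-disc gene, had 0.19 to 0.26, *Ryr2*, the calcium release channel, -0.08 and 0.14, and *Casq2*, cardiac calsequestrin, 0.39 (limma adjusted p = 0.465 or more in these genes). Levels of probe sets on a 3′ array do not measure the choice of exons.

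**Figure D5:**
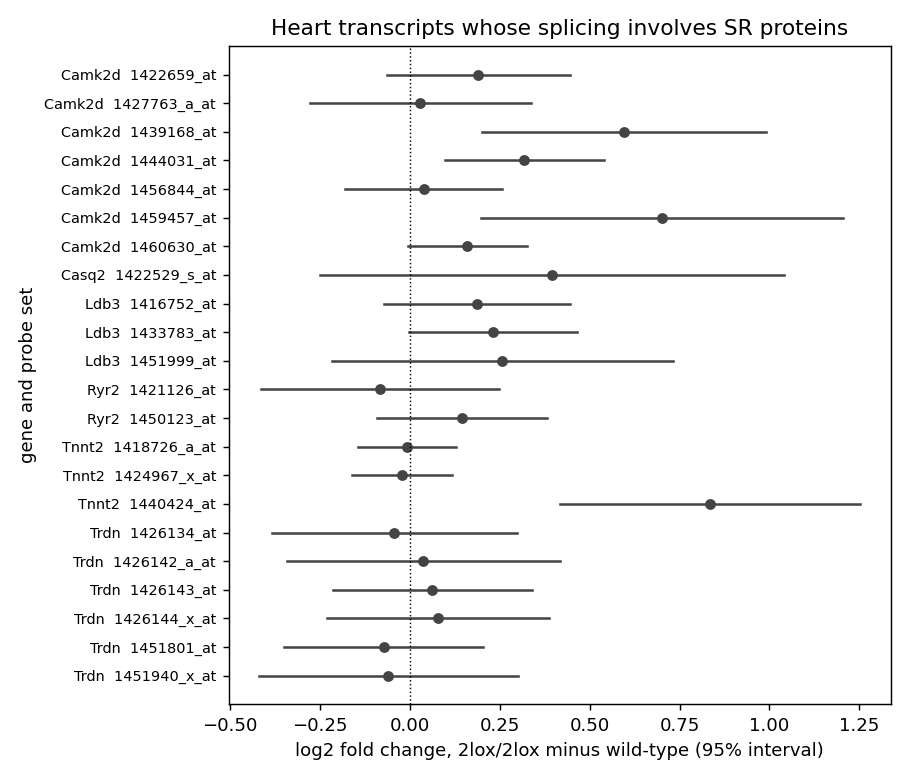
Log2 fold change (2lox/2lox minus wild-type, horizontal axis) of the 22 probe sets of 6 heart transcripts (vertical axis), with bars for the limma 95% interval. The *Trdn* probe sets lie near 0, from -0.07 to 0.08, and the highest values are 1440424_at of *Tnnt2* at 0.84 and 1459457_at of *Camk2d* at 0.70.

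The genes whose level followed 1449121_at most closely over the 8 hearts were *Plcg2* (Pearson r = 0.98), *Cap1* (r = 0.98), *Crebbp* (r = 0.97), *Rps4l* (r = 0.96) and *Tesc* (r = 0.95), among 20349 probe sets with a mean above the median. The 8 hearts fall into the genotypes, and r takes in that difference, so it is a description only. No other SR protein gene was among these 5, but 5 places among 20349 probe sets cannot show whether the family followed 1449121_at. *Srsf10* and *Srsf4* are the members on chromosome 4, within 20 Mb of *Kdm1a* (GRCm38.p6), with 16 protein-coding genes between *Srsf10* and *Kdm1a* and 106 between *Srsf4* and *Kdm1a*. Of these, 14 and 91 were measured. In the first span 1 probe set passed the threshold and in the second, which holds *Srsf10* itself, 4 passed, where 0.0798% of all probe sets did. The 2lox/2lox hearts carry the chromosome region of the targeted allele, so in these hearts its neighbours and the allele cannot be told apart.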

How the data were processed

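Total RNA from 8 freshly dissected E18.5 hearts, 5 wild-type and 3 2lox/2lox, was read on Affymetrix Mouse430 arrays. The authors deposited log2 levels. How the probes were summarised and normalised is not given in the sources used. The submitters' processing notes name limma. A different summary of the probes could shift low values most. Array medians were 5.03 to 5.10, and no further normalization was applied. Precision is limited by the number of arrays.

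Probe sets were named from the platform annotation, updated by gene identifier to the RefSeq table of GRCm38.p6 (99.4% of probe sets with 1 gene matched). limma 3.58.1 in R 4.3.3 was run on all hearts with lmFit and eBayes, 2lox/2lox minus wild-type, two-sided, Benjamini-Hochberg over 45101 probe sets. For lists, a gene's brightest probe set was used. Named genes are all members, *Kdm1a*, up to 4 genes per list with the smallest p, the heart transcripts and the 5 genes most like 1449121_at. Members and lists were chosen with earlier results of these data known. Marker lists of endothelial, fibroblast, erythroid, lymphocyte and smooth muscle cells had medians of 0.03, 0.03, 0.07, 0.04 and 0.27, with none past the threshold, and cardiomyocyte markers 0.03. Alternatives were intensity trend, robust moderation, quantile normalization, median centring, a filter on dim probe sets, weights per array, a block for the heart number, the 3′/5′ contrast in the fit, and dropping each heart in turn. The fit was tested on simulated data. The animals are described as littermates, but no source used names the litter of each heart. The p-values set the genotype difference against the spread between these animals, which may include differences between litters.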

Additional observations from a re-analysis of the deposited data

Results flagged for a closer look

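In 1 of the 32 probe sets of SR protein genes, 1428100_at of *Srsf1*, a wild-type heart stood apart from the other wild-type hearts. Wild-type heart 2 read 9.003 and the other wild-type hearts 9.28 to 9.31, so the gap was 0.91 of the whole range, above the critical value of 0.71 for 5 values. Chance marks about 1 in 20 groups in this way. No other wild-type value of the 32 probe sets met the rule, and the 2lox/2lox group of 3 was too small for it.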

How the results depend on the processing

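The log2 fold change of 1449121_at of *Srsf10* stayed between 0.75 and 0.77 under all 8 alternatives that kept every heart, and between 0.70 and 0.82 with each heart left out in turn. It was the 1 member past the threshold in the fit of all hearts and with each of 7 hearts left out, and 0 members passed without 2lox/2lox heart 1, with the replicate number as a block, with the 3′/5′ contrast in the fit, or with the brightest probe set of each gene, which for *Srsf10* is 1423982_at. With the replicate block 0 probe sets of the whole array passed and 1449121_at had 0.75. The cause was not tested. The numbers were not taken as pairs, because no label states that they pair hearts. Hearts with the same number had deviations that correlated at 0.03, -0.07 and -0.14 for numbers 1 to 3. Over all pairs of hearts the values ran from -0.14 to 0.16, and they cannot show whether hearts shared a litter. The number of members whose 2lox/2lox hearts all lay outside the wild-type range was 3 of 32, where 6.11% of all probe sets did. Median centring gave 2 and quantile normalization 3. With each heart left out it was 3 to 8, with 5 without 2lox/2lox heart 1 and 8 without 2lox/2lox heart 3. Leaving out a heart can keep or raise such a count in any probe sets but not lower it, so nothing is read from the rise. Over the array, 2lox/2lox hearts 1 and 2 were below the range with heart 3 within it in 5.8% of probe sets, and above it in 5.99%. Of the listed splicing genes 0 to 3 passed with each heart left out. The median over the members stayed between -0.04 and 0.01 with each heart left out and was 0.07 with the covariate. Of the single-member values under an alternative, 482 moved by less than the SD between hearts and 11 by more, all 11 with the covariate. Over the array 36 probe sets passed, 9 with the covariate, and from 17 (wild-type heart 1 left out) to 797 (2lox/2lox heart 3 left out). Probe sets near background set a limit to what can be seen in the dim probe sets of *Srsf1*, *Srsf11* and *Camk2d*.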
